A study of Homo sapiens with 6 samples.

Results

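The genes described here are 10 genes of replication licensing and of the replicative helicase, chosen by symbol from the 35993 genes of the deposited gene table: MCM2, MCM3, MCM4, MCM5, MCM6, MCM7, CDC6, CDT1, CDC45 and MCM10. RNA was sequenced from MIA PaCa-2, an established line of human pancreatic carcinoma cells, as 3 untreated libraries and 3 treated ones, the latter after 48 h with rhCYGB at 4 µM. rhCYGB is the oxygen-binding globin cytoglobin of human sequence, made with a histidine tag in bacteria and added to the medium. The untreated and the treated cells shared the line and the medium. They were grown with 10% fetal bovine serum and 2.5% horse serum, and the serum was lowered to 1% fetal bovine serum before rhCYGB was added. The labels name no vehicle for the untreated cells, and they do not say whether the libraries of a group came from separate cultures, so the p-values measure the spread between these libraries, which may be technical. The comparison asked how the messenger RNAs of the licensing machinery differed after rhCYGB.

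Replication licensing is the step at which the MCM2 to MCM7 proteins, a ring-shaped helicase, are placed on DNA at origins before S phase. The origin recognition complex, CDC6 and CDT1 load the ring, and geminin holds CDT1 back once S phase has begun. The loaded ring is inactive until CDC45 and the GINS complex join it to form the CMG helicase, and MCM10 takes part in its activation. Cells also restrict licensing by ubiquitin-dependent breakdown of CDT1. Most of these genes are textbook targets of the E2F transcription factors, their transcripts rise towards S phase, and MCM proteins are in common use as markers of proliferating cells.

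The promoters were examined because 9 of the 10 genes moved together. RefSeq promoter windows on GRCh38.p14, each running from 250 bases before to 50 bases after a transcription start, were at hand for 8 of the 10 genes, in 12 windows. MCM4 and MCM5 had none. The E2F words TTTGGCGC, TTTCCCGC, TTTGCCGC and TTTCGCGC, searched on both strands, occurred in windows of 6 of the 8 genes and in 6 of the 12 windows, against 3.31% of all 35116 promoters and 4.94% of the 15502 promoters of tested genes. The related word TTTGGCGG occurred in windows of 4 genes and in 4 of the 12 windows, against 0.652% of all promoters and 0.974% of those of tested genes. Each of the 8 genes had at least 1 of the 5 words. These words lay in 8 of the 12 windows, against 3.92% of all promoters and 5.85% of those of tested genes. The CCAAT box, the word bound by NF-Y, was found in 9 of the 12 windows against 34.6% of all promoters. These were windows of 6 of the 8 genes, and MCM2 and CDT1 had none. The words were chosen after these promoters had been seen, and a match is a description of letters, not of a bound site. The windows around the E2F words are shown because they include CDT1, which did not fall. They are written 5′ to 3′ along the gene with E2F words and CCAAT boxes of either strand in capitals, and in MCM2 and MCM6 words of both strands overlap.
MCM2, chr3:127598404-127598433, plus strand: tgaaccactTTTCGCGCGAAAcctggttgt
MCM3, chr6:52284897-52284928, minus strand: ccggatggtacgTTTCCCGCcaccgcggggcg
MCM3 at the start, chr6:52284728-52284757, minus strand: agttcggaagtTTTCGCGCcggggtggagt
MCM6, chr2:135876572-135876607, minus strand: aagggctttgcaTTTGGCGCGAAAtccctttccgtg
MCM6 nearer the start, chr2:135876510-135876545, minus strand: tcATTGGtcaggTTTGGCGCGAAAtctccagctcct
MCM7, chr7:100101565-100101596, minus strand: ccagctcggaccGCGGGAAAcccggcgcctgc
MCM7 at the start, chr7:100101388-100101417, minus strand: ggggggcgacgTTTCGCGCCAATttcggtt
CDC6, chr17:40287839-40287870, plus strand: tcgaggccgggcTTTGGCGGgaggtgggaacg
CDC6 past the start, chr17:40287875-40287904, plus strand: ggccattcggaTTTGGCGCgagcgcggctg
CDT1, chr16:88803742-88803781, plus strand: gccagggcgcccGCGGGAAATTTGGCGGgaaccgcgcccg
CDC45, chr22:19479883-19479914, plus strand: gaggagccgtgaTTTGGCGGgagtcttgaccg
MCM10, chr10:13161552-13161581, plus strand: ccggttggaatTTTGGCGGgttcagctgtg

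**Figure D1:**
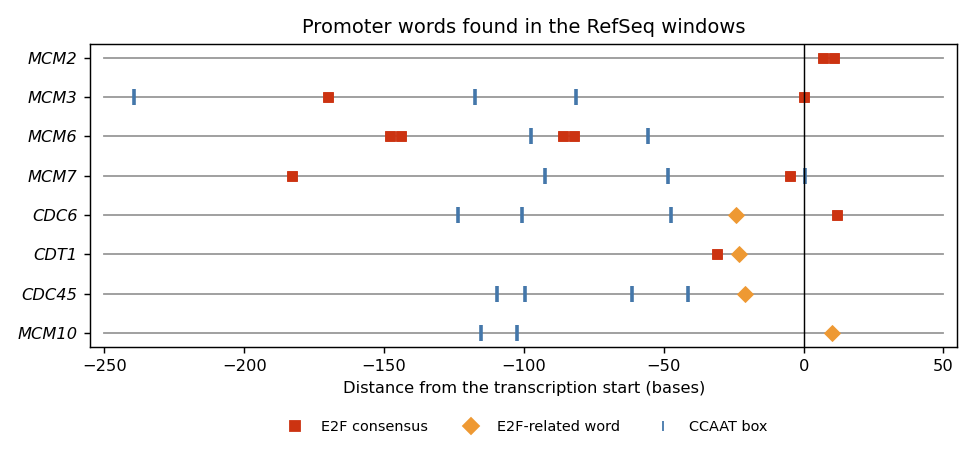
Position of the words in 1 RefSeq promoter window per gene, the window that holds an E2F word, with the distance from the transcription start in bases on the x axis and 1 gene per line. Squares mark the E2F consensus words, diamonds the related word and bars CCAAT boxes. The E2F words of MCM2, CDC6, CDT1, CDC45 and MCM10 lie near the start, those of MCM6 lie upstream, and MCM3 and MCM7 have both, while CDT1 has an E2F consensus word and the related word side by side.

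Gene counts summed to between 34838399 and 42271299 per library. Levels are given as CPM, read counts relative to the library size after scaling by edgeR's TMM method. The coefficient of variation between libraries of a group, as edgeR's common estimate that leaves out counting error, was 5.48%. Of 14728 genes tested with edgeR's quasi-likelihood test, 2165 were at least 2-fold lower and 1833 at least 2-fold higher after rhCYGB at a Benjamini-Hochberg adjusted p under 0.05. That split was 2633 to 1448 with upper-quartile scaling, 2719 to 1395 with total counts and 2327 to 1282 with limma on log2(FPKM + 0.1), and the median log2 fold change of all genes was -0.146, -0.169 and -0.152 in these settings against -0.005 as reported. CYGB had 0 counts in all 6 libraries, an upper limit of 3 counts per library, and PTPRC, CD3E, PECAM1 and all 5 acinar and islet markers were also at 0. Of the epithelial markers, KRT8 and KRT18 were abundant, whereas EPCAM was at 0 and CDH1 reached at most 2 counts. The summed level of the 6 epithelial markers was 3840 to 4070 CPM in untreated and 2960 to 3170 CPM in treated libraries. That of the 3 mesenchymal markers, VIM nearly alone, was 7960 to 8130 CPM and 11600 to 12100 CPM. The 3 endothelial markers, carried by CDH5, summed to 109 to 122 CPM in untreated and 10.5 to 13.6 CPM in treated libraries. The 6 stellate and fibroblast markers summed to 9.72 to 9.98 CPM in untreated and 5.22 to 5.67 CPM in treated libraries, with ACTA2 at 5.61 and 5.3 CPM and COL3A1 at 3.99 and 0.119 CPM. The 4 immune markers, carried by CD68, summed to 34.3 to 38 CPM and 70.4 to 72.4 CPM. The part of these shifts in the results below was not tested.

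All of the ring subunit genes, MCM2 to MCM7, fell after rhCYGB. MCM3 fell the most and MCM5 the least. In each of these genes every treated library lay below every untreated library, as it did in 39.7% of all tested genes. In these bulk libraries a smaller share of replicating cells and less RNA per cell cannot be told apart. MCM7 (deposited position on chromosome 7, 99690351 to 99699020, build not named) was the most abundant member. Its level was 360, 361 and 374 CPM in untreated libraries 1 to 3 and 121, 118 and 117 CPM in treated libraries 1 to 3. The treated libraries lay close together and held 32.6% of the untreated level, a log2 fold change of -1.62 (SE 0.0366, edgeR adjusted p = 9.43e-15). MCM4 (chromosome 8, 48873501 to 48890720), which forms part of the MCM4, MCM6 and MCM7 core with helicase activity of its own, was at 239, 244 and 256 CPM untreated and 81.1, 75.7 and 83.7 CPM treated. Its log2 fold change was -1.62 (SE 0.045, edgeR adjusted p = 7.92e-14), beside -1.62 for MCM7. MCM6 (chromosome 2, 136597196 to 136634013), the third gene of that core, was at 144, 144 and 158 CPM untreated and 67.3, 68.1 and 67.7 CPM treated. It fell by 1.14 on the log2 scale, less than the other genes of that core (SE 0.0447, edgeR adjusted p = 3.47e-12), and its treated libraries varied by only 0.38 CPM (SD).

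MCM2 and MCM5 form the side of the ring that opens to admit DNA, and they fell to 46.2% and 48.9% of the untreated level. MCM2 (chromosome 3, 127317254 to 127341279) was at 200, 200 and 208 CPM untreated and 94.9, 90.6 and 95.5 CPM treated, a log2 fold change of -1.11 (95% interval -1.20 to -1.03, edgeR adjusted p = 9.41e-13). MCM5 (chromosome 22, 35796133 to 35821424) was at 82.8, 84.2 and 87.6 CPM untreated and 40.7, 37.9 and 46.0 CPM treated. Its log2 fold change of -1.03 had a 95% interval of -1.16 to -0.90, which includes a change of less than 2-fold (edgeR adjusted p = 3.75e-10). Tested against a 2-fold change, MCM5 was the member among the 9 that did not pass (edgeR glmTreat adjusted p = 0.512), and without rhCYGB library 2, its lowest, its log2 fold change was -0.97. MCM3 (chromosome 6, 52128813 to 52149540), the partner of MCM5 through which CDC6 and the origin recognition complex engage the ring during loading, stood apart from the other subunits. It was at 171, 173 and 176 CPM untreated and 32.7, 35.2 and 30.1 CPM treated. The treated cells kept 18.8% of the untreated level, a 5.31-fold fall (log2 fold change -2.41, SE 0.0514, edgeR adjusted p = 5.4e-15).

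**Figure D2:**
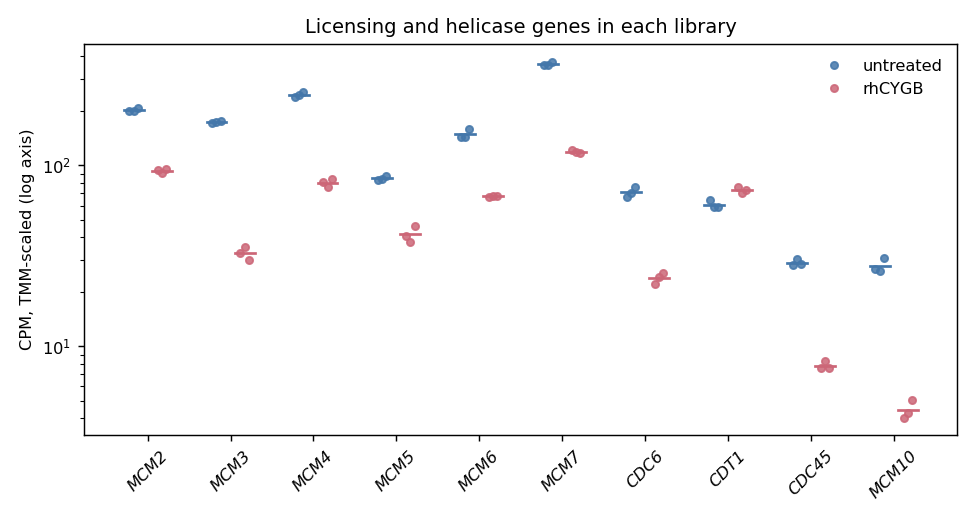
TMM-scaled CPM of the 10 genes in each library on a log axis, with blue points for the 3 untreated and red points for the 3 rhCYGB libraries and a line at each group mean. For 9 genes the red points lie below all blue points, as they do for 39.7% of all tested genes. For CDT1 they lie above, at 70.4 to 76.0 CPM against 58.7 to 64.3 CPM.

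The loading factors CDC6 and CDT1 moved apart. CDC6 (chromosome 17, 38444131 to 38460909), the ATPase that joins the origin recognition complex to receive the ring, was at 66.8, 70.8 and 75.7 CPM untreated and 22.2, 24.3 and 25.3 CPM treated. The treated libraries held 33.6% of the untreated level (log2 fold change -1.57, SE 0.0615, edgeR adjusted p = 3.28e-12). CDT1 (chromosome 16, 88870197 to 88875666), which escorts the ring to the origin, was at 64.3, 58.7 and 58.9 CPM untreated and 76.0, 70.4 and 73.3 CPM treated. It was the member that rose, by 0.28 on the log2 scale (95% interval 0.17 to 0.38, edgeR adjusted p = 0.000122), which is short of the 2-fold limit. The direction of CDT1 was upward in each of the 17 alternative settings, between 0.10 and 0.32, and the size followed the scaling. In deposited FPKM, which carries no TMM factor, CDT1 was at 22.4, 20.5 and 20.8 untreated and 23.9, 21.4 and 23.3 treated, so the groups overlapped, and limma on log2(FPKM + 1) gave 0.10 (adjusted p = 0.103).

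CDC45 and MCM10, which act after loading to turn the ring into a working helicase, fell by more than most subunits of the ring. CDC45 (chromosome 22, 19466989 to 19508135) was at 28, 30.3 and 28.6 CPM untreated and 7.62, 8.30 and 7.57 CPM treated. It kept 27% of its level (log2 fold change -1.89, SE 0.0719, edgeR adjusted p = 2.36e-12). MCM10 (chromosome 10, 13203558 to 13253110) was at 26.9, 26.0 and 30.7 CPM untreated and 4.04, 4.30 and 5.07 CPM treated, from 1003, 1166 and 1254 counts and 150, 143 and 187 counts. It had the deepest fall of the 10 genes, 6.23-fold (log2 fold change -2.64, SE 0.099, edgeR adjusted p = 2.05e-12), and 1.48% of all tested genes had a lower log2 fold change. On the log2(FPKM + 1) scale, which understates the change of low genes, its difference was -1.89.

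All 10 genes passed the filter on low counts. At an adjusted p under 0.05 and a 2-fold limit, 9 of the 10 were lower, beside 14.7% of all tested genes, and 0 were higher, beside 12.4%. By the adjusted p alone 9 were lower, beside 38.6% of all tested genes, and 1, CDT1, was higher, beside 39.0%. In the same 9 genes every treated library lay below every untreated library, which held for 39.7% of all tested genes. The median log2 fold change was -1.595 over the 10 genes and -1.38 over MCM2 to MCM7, against -0.005 over all genes tested.

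Levels of different genes were compared in FPKM, which is scaled to transcript length. In untreated cells MCM7 was highest at 137 ± 4.03 FPKM (SD, n = 3). MCM4, MCM2 and MCM3 followed at 56.4 ± 2.48, 55 ± 1.69 and 52.4 ± 1.13 FPKM, and the libraries of MCM4 and MCM2 overlapped. Next were MCM6 at 37.0 ± 2.34 FPKM and MCM5 at 22.9 ± 0.838 FPKM, and CDT1 at 21.2 ± 1.0 FPKM overlapped with MCM5. CDC6 and CDC45, at 14.5 ± 1.02 and 13.8 ± 0.64 FPKM, overlapped, and MCM10 was lowest at 5.71 ± 0.557 FPKM. The order differed after rhCYGB. CDT1, seventh of the 10 genes before, was level with MCM2 behind MCM7, at 22.9 ± 1.27 FPKM against 22.7 ± 1.13 FPKM and 39.3 ± 1.19 FPKM. MCM4 at 16.4 ± 1.18 FPKM overlapped with MCM6 at 15 ± 0.274 FPKM. MCM3 dropped from the fourth place to the seventh, at 8.64 ± 0.455 FPKM, and overlapped with MCM5 at 9.99 ± 1.19 FPKM. CDC6, CDC45 and MCM10 closed the order at 4.36 ± 0.319, 3.29 ± 0.0996 and 0.815 ± 0.112 FPKM.

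Since the ring holds its subunits in equal number, the balance of their transcripts was also examined, as each gene's share of the summed FPKM of MCM2 to MCM7. The sum was 352, 356 and 375 FPKM in untreated and 114, 107 and 115 FPKM in treated libraries, so that 31% was left. Within that smaller sum the share of MCM3 went from 14.5 ± 0.192% to 7.73 ± 0.674% (SD, n = 3), the largest shift of the 6 genes. MCM2 went the other way, from 15.2 ± 0.0566% to 20.2 ± 0.261%. MCM6 and MCM5 also took larger shares, by 3.15 and 2.56 percentage points. MCM7 gave up 2.94 points and MCM4 0.993 points. In each of the 6 genes the untreated and treated shares did not overlap, and each had a p of 0.1 in a two-sided exact permutation test (0.1 after adjustment over 6 genes), the smallest p that 3 against 3 libraries can give. The ratio of the most to the least abundant subunit was 5.96 to 6.08 in untreated libraries and 4.29 to 4.84 in treated libraries.

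**Figure D3:**
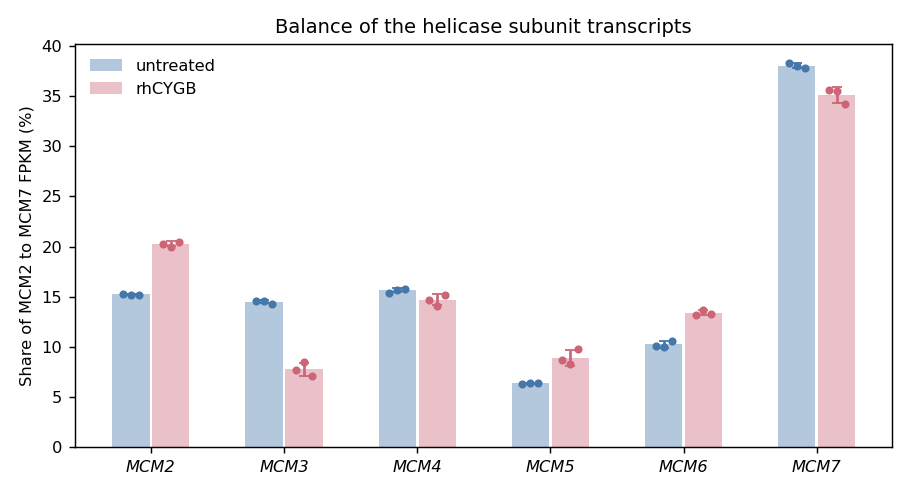
Share of each gene in the summed FPKM of MCM2 to MCM7, in percent, with points for single libraries, bars for group means and error bars for the SD of 3 libraries. The MCM3 bars go from 14.5% to 7.73%, those of MCM2, MCM5 and MCM6 are taller in treated libraries, and MCM7 stays the tallest in both groups.

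CDT1 was set against its partner, its inhibitor and a ring subunit in each library as a ratio of FPKM values, in pairs chosen after the values had been seen. CDT1 to CDC6 was 1.65, 1.42 and 1.33 in untreated libraries and 5.87, 4.97 and 4.96 in treated libraries. GMNN, the gene of geminin, had a log2 fold change of -0.70 (edgeR adjusted p = 1.81e-07), and CDT1 to GMNN was 1.07, 0.970 and 0.944 untreated and 1.84, 1.92 and 2.1 treated. CDT1 to MCM2 was 0.386 ± 0.026 untreated and 1.01 ± 0.0215 treated (SD, n = 3). All 3 ratios were higher in each treated library than in each untreated library (two-sided exact permutation p = 0.1, the smallest possible). A ratio within a library does not depend on the scaling between libraries.

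The deposited transcript table lists 31 transcripts of the 10 genes, of which 24 had enough counts to be tested, and 4 genes, MCM5, MCM6, CDC6 and CDT1, have 1 transcript each. Of the 24 transcripts 10 were lower at an adjusted p under 0.05, beside 14.8% of all 32577 transcripts tested, 1 was higher, beside 15.1%, and 13 did not pass. The counts per transcript are the assembler's estimates, and the error of dividing reads between near-identical variants is not in these p-values. MCM10 shows the size of that error. Its variant 2 took 51.3%, 62.5% and 79.6% of the gene's counts in untreated libraries and 76.7%, 0% and 100% in treated libraries, while the gene's count varied little.

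MCM7 was the 1 gene of the 6 with at least 2 tested transcripts whose variant usage passed the test (edgeR diffSpliceDGE, Simes adjusted p = 0.0254), beside 6.48% of 7019 such genes. Variant 2 of MCM7 ends at 99698403 in the deposited table, short of the end at 99699020 of variants 1 and 3, and this is the 5′ side of the gene. It had 199, 321 and 125 counts in untreated and 336, 404 and 417 counts in treated libraries. Its share of the gene's counts was 1.48%, 1.98% and 0.820% untreated and 7.46%, 10.3% and 9.68% treated. The share was higher in every treated library, while the transcript's own log2 fold change of 0.98 did not pass (SE 0.348, edgeR adjusted p = 0.0926). Variant 1, the main form, went from 94.1 ± 1.21% to 84 ± 3.06% of the gene's counts (SD, n = 3) as its log2 fold change was -1.86. The usage result depended on single libraries: it was lost without untreated library 1, 2 or 3 (adjusted p = 0.0933, 0.0524 and 0.148) and without rhCYGB library 2 or 3 (0.1 and 0.0967), and held without rhCYGB library 1 (0.0451).

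In MCM3 the main form, variant 1, had 4318, 5680 and 5282 counts untreated and 648, 427 and 511 counts treated, a log2 fold change of -3.16 (SE 0.133, edgeR adjusted p = 5.2e-05). Variant 3 had 530, 723 and 617 counts untreated and 463, 454 and 325 counts treated. Its share went from 8.75 ± 0.508% to 35.4 ± 5.29% (SD, n = 3) with no overlap between the groups. The usage test did not pass for MCM3 (edgeR diffSpliceDGE adjusted p = 0.494), and the other variants each held at most 12.3% of the gene's counts in any library.

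**Figure D4:**
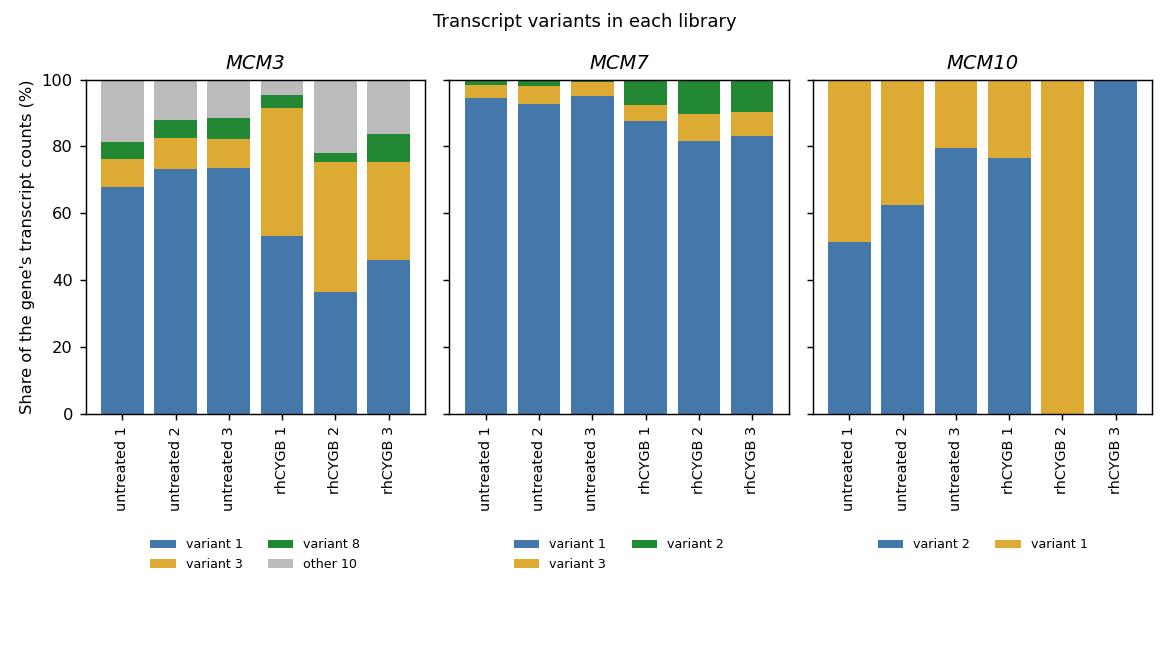
Share of each transcript variant in the counts of MCM3, MCM7 and MCM10, in percent, with 1 bar per library and 1 colour per variant (the rarer variants of MCM3 in grey). The share of MCM7 variant 2 is at most 1.98% in untreated and at least 7.46% in treated libraries, and MCM10 swings between variants from library to library within a group.

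The genes around the 10 were counted in 4 lists of the same pathway, all of whose genes were tested. Of 12 genes of origin firing and CMG assembly, 7 were at least 2-fold lower and 0 higher, beside 14.7% and 12.4% of all tested genes, with a median log2 fold change of -1.19. GINS1 and GINS2, subunits of the GINS complex that joins CDC45 on the ring, went from 36.7 ± 2.5 to 4.92 ± 0.147 CPM (SD, n = 3; log2 fold change -2.90, edgeR adjusted p = 4.55e-14) and from 30.7 ± 0.613 to 6.69 ± 1.03 CPM (-2.195; adjusted p = 5.57e-12). At the other end of the list GINS3, which belongs to the same complex, was at 20.8 ± 0.387 and 21.7 ± 0.583 CPM (log2 fold change 0.06, edgeR adjusted p = 0.344). DBF4, the activating subunit of the CDC7 kinase that phosphorylates the ring, was at 45.5 ± 1.72 and 48.5 ± 1.73 CPM (0.09, edgeR adjusted p = 0.109). Both GINS3 and DBF4 were slightly negative with upper-quartile scaling, total counts and both FPKM settings.

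Of 28 genes of fork proteins, which follow or accompany the helicase, 16 were at least 2-fold lower and 0 higher, again beside 14.7% and 12.4% of all tested genes, with a median of -1.10. PCNA, the sliding clamp, went from 169 ± 7.27 to 31.7 ± 3.22 CPM (SD, n = 3; log2 fold change -2.415, edgeR adjusted p = 3.11e-14). FEN1, the flap endonuclease, fell by 2.32 on the log2 scale. The small polymerase subunits POLE4 and POLD4 were at the top of the list, at 0.15 (edgeR adjusted p = 0.0555) and 0.23 (adjusted p = 0.00213), and POLE4 was slightly negative with total counts and both FPKM settings, where POLD4 did not pass.

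Of the 12 genes of origin recognition and licensing control, 3 were at least 2-fold lower and 1 higher, beside 14.7% and 12.4% of all tested genes, and the median was -0.11. ORC6 and ORC1, subunits of the origin recognition complex, fell by 1.89 and 1.55 on the log2 scale (edgeR adjusted p = 1.42e-11 and 9.75e-09). The other subunits did not follow. ORC2 and ORC3 were at -0.158 and -0.068 (edgeR adjusted p = 0.0379 and 0.304), and ORC5 and ORC4 at 0.352 and 0.386 (5.74e-06 and 1.87e-05). KAT7, the acetyltransferase that aids MCM loading, was higher, 54.3 ± 1.72 against 117 ± 4.82 CPM (SD, n = 3; log2 fold change 1.11), and LRWD1, which binds the origin recognition complex, had a log2 fold change of 0.75 (edgeR adjusted p = 6.71e-09). Of the 17 genes of CDT1 and CMG ubiquitin turnover 5 were at least 2-fold lower, beside 14.7% of all tested genes, and 2 higher, beside 12.4%, and the median was -0.50. SKP2, a substrate receptor for CDT1, went from 45.5 ± 2.41 to 11.6 ± 0.562 CPM (SD, n = 3; log2 fold change -1.98, edgeR adjusted p = 4.42e-13). FBXO31, another F-box protein that acts on CDT1, went from 43.5 ± 1.45 to 118 ± 4.73 CPM (1.44, edgeR adjusted p = 3.71e-13). SKP2 and FBXO31 thus moved in opposite directions. DTL, also in this list, was lower like SKP2 (log2 fold change -1.085, edgeR adjusted p = 2.22e-11). LRR1, which targets the CMG helicase for unloading, fell by 1.68, and FAF1, a cofactor in that unloading, had a log2 fold change of 1.03. The calls of KAT7 and FAF1 were under 2-fold with upper-quartile scaling, total counts and both FPKM settings.

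**Figure D5:**
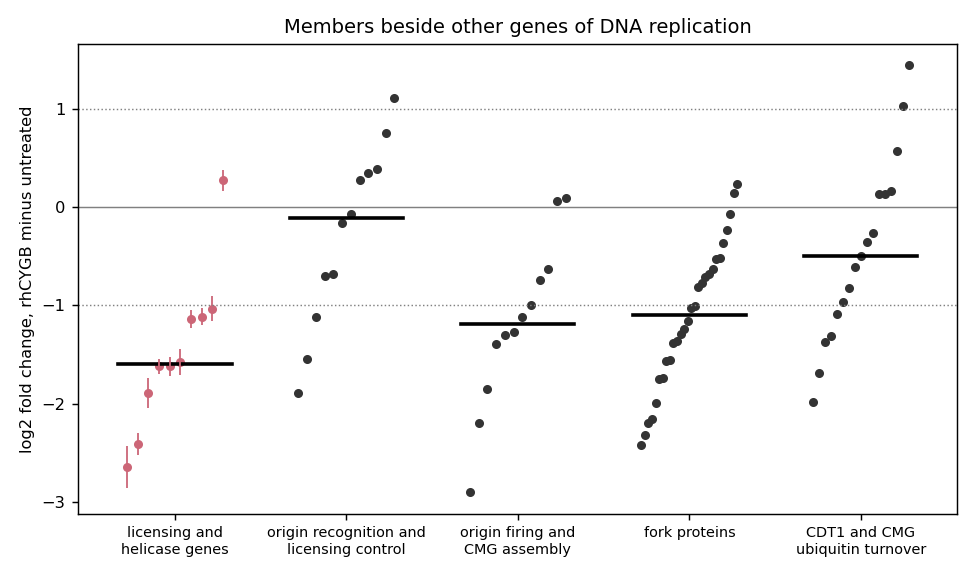
Log2 fold changes, rhCYGB minus untreated, of the 10 licensing and helicase genes (red, with 95% intervals) and of the genes of 4 other lists (black), each list in rising order, with a thick line at its median and dotted lines at 2-fold. The medians are -1.595 for the 10 genes, -0.11 for origin recognition and licensing control, -1.19 for firing, -1.10 for fork proteins and -0.50 for ubiquitin turnover.

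Genes next to the members on the chromosome were also compared. TPRA1, 179 bases from MCM2, was higher after rhCYGB, 51.6 against 109 CPM (log2 fold change 1.08, edgeR adjusted p = 1.6e-11). UFD1, 272 bases from CDC45, had a log2 fold change of 0.13, which was negative with upper-quartile scaling, total counts and both FPKM settings, and AP4M1, 245 bases from MCM7, one of 0.29. PRKDC, 804 bases from MCM4, fell with its neighbour but by less, at -0.67 (SE 0.0367, edgeR adjusted p = 1.6e-10). APRT, 80 bases from CDT1, fell by 0.44 while CDT1 rose. COPS6, 540 bases from MCM7, had a log2 fold change of -0.135 (edgeR adjusted p = 0.0139). None of these protein-coding genes overlaps a member in the deposited table. The hairpins of MIR25, MIR93 and MIR106B lie within MCM7 and had at most 15, 5 and 6 counts in any library. The libraries came from a kit for mRNA, so these counts do not give the level of the small RNAs. The pseudogene RPL36AP36, 1740 bases from MCM10, had 0 counts.

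The likeness of other genes was measured as the Euclidean distance of log2 CPM profiles over the 6 libraries, centred on the untreated mean, from the median profile of the 10 genes. Of 11850 genes PCTP (0.0487), NCAPD2 (0.0622), XRCC2 (0.0737) and NT5DC2 (0.0766) were nearest, each with a log2 fold change between -1.59 and -1.55. Among the members CDC6, MCM4 and MCM7 were nearest to the median profile, at 0.118, 0.120 and 0.129. MCM3 and MCM10 were far below it, at 1.47 and 1.86, and CDT1 was farthest, at 3.19.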

How the data were processed

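RNA from 3 untreated and 3 rhCYGB-treated MIA PaCa-2 libraries was analysed, grouped by their labels. Libraries came from a stranded kit for mRNA. The authors checked reads with FastQC (version 0.11.7 per the labels), mapped trimmed reads with HISAT2 (2.1.0) and assembled transcripts with StringTie (2.1.3b). Per gene and per transcript, the authors deposited raw read counts and FPKM values, the latter scaled by the authors to transcript length and mapped reads. The submitters' processing notes name the mouse build mm10, although the samples are human. The files name no build, and the deposited positions overlapped those of GRCh38 for 2 of the 10 genes, so deposited positions are given as they stand and promoter sequences carry RefSeq GRCh38.p14 positions. The 12 TPM columns were not used.

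Counts were tested with edgeR 4.0.16 in R 4.3.3 (filterByExpr, TMM factors, quasi-likelihood test, all 6 libraries, no block, adjustment over all genes or transcripts tested), and diffSpliceDGE was used for variant usage. A gene was called at an adjusted p under 0.05 and 2-fold. Shares and ratios were compared by exact permutation. The functions were tested on simulated data. Promoter words were searched in Python 3.11.15. Libraries of a group differed beyond counting error in every pair (chi-square over degrees of freedom 4.67 to 6.61). Intervals of fold changes come from the fit and include the spread between libraries. The limit set by 0 counts covers counting error only, as reads without molecular identifiers are not independent molecules. Libraries with the same replicate number did not deviate together, and the labels do not say whether they were paired. The members and gene lists were chosen with earlier results of these data known. All 10 members are named. From each other list the text names the 2 lowest and 2 highest log2 fold changes among genes whose higher group averages 100 counts or more, the neighbours that start within 2000 bases of a member or overlap it, and the 5 genes nearest in profile, of which 1 is not reported here; GMNN and the marker genes were named outside this rule, and the marker lists are given by their sums and by some of their genes. Alternatives were DESeq2 1.42.0 (size factors, Wald test), other scalings, limma 3.58.1 on log2(FPKM + 1) and log2(FPKM + 0.1), other filters, transcript sums, glmTreat, a replicate block and leaving out each library. For other genes named in the text these alternatives were added after seeing the data. DTL, ORC2, ORC3, ORC4, ORC5, the genes nearest in profile and the marker genes were not examined in them.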

Additional observations from a re-analysis of the deposited data

How the results depend on the processing

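The count of members called lower was 9 in every alternative except 2, where it was 8: without rhCYGB replicate 2 and in the test against 2-fold (MCM5 in both). The 9 lower members kept an adjusted p under 0.05 in each of the 17 alternatives fitted to them, and no member changed direction. The median log2 fold change of the members was -1.737 with upper-quartile scaling, -1.76 with total counts and -1.745 with limma on log2(FPKM + 0.1), and -1.623 to -1.554 when a library was left out. CDT1 no longer passed the adjusted p with limma on log2(FPKM + 1) (0.104, adjusted p = 0.103) and log2(FPKM + 0.1) (0.109, adjusted p = 0.101); it passed in its other 15 alternatives, down to 0.109 with total counts. The number of genes called in the whole table was 1977 with limma on log2(FPKM + 1), 1172 lower and 805 higher, against the 3998 reported. The number of higher genes fell to 0 for origin recognition and licensing control and to 1 for ubiquitin turnover with upper-quartile scaling, total counts and both FPKM settings, and to 1 for ubiquitin turnover in the test against 2-fold; fewer genes are above 2-fold by construction where all genes shift down. Of the other genes examined, 4 changed direction in settings added after seeing the data, none of them at an adjusted p under 0.05. With upper-quartile scaling, total counts, log2(FPKM + 1) and log2(FPKM + 0.1) in turn, GINS3 was at -0.079, -0.103, -0.117 and -0.13, DBF4 at -0.05, -0.074, -0.062 and -0.067, and UFD1 at -0.01, -0.035, -0.035 and -0.036. POLE4 was at -0.019 with total counts and -0.016 in both FPKM settings.

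Among transcripts of the members the number higher was 0 without the filter, 0 with a replicate block, and 0 to 1 when a library was left out (1 without untreated replicate 1); that transcript is the 1 of CDT1 (log2 fold change 0.19, adjusted p = 0.0382). The number of members with changed variant usage was 0 without the filter (MCM7 adjusted p = 0.0624) and 0 to 1 when a library was left out. Without rhCYGB replicate 3 the gene that passed was MCM2 (0.00211), not MCM7. Variant 2 of MCM2 had 139, 226 and 246 counts in untreated libraries and 0, 0 and 156 in treated libraries 1 to 3. The cause was not tested. The share of MCM4 moved by -1.71 points when shares were taken from read counts. With the replicate number as a block, 9 members and 3978 genes were called and the usage result of MCM7 had an adjusted p of 0.0498. The block changed no call of a member at the gene level. Of the other genes examined, POLE4 alone crossed the threshold with the block (0.148, adjusted p = 0.0303). Same-numbered libraries did not deviate together (correlations -0.0479, 0.00715 and 0.00554). The labels do not say whether they share more than a number, and these correlations cannot decide it. Depth was not limiting for the gene counts of the members, the lowest being 143, and it limits the rarer variants.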
